A study of Homo sapiens with 21 samples.

Results

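The heat shock chaperone genes described here were HSPB1, HSPB8, CRYAB, BAG3, HSPA1A, HSPA1B, DNAJB1, HSPH1 and HSP90AA1, found by matching their symbols to the Ensembl identifiers of the deposited counts. All 9 were present among 53515 genes. They were chosen by their measured levels in the 17 cell lines and their changes in the 10 resistant lines, so those values are given as a description and were not tested.

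RNA sequencing covered 7 parental cancer cell lines and 10 drug-resistant lines derived from them in vitro, in 21 libraries. The resistant lines had been exposed to rising drug doses for months. The paper gives the lung lines HCC4006P1 and HCC4006P2 the same cell line identifier, so they are stocks of the same established line. The main fits and family values treat them as separate parental lines, so the 7 family values may not be independent. Sorafenib, a kinase inhibitor, gave the resistant lines HepG2S1 and HepG2S3 from the liver line HepG2, and 5-fluorouracil, which blocks thymidylate synthesis, gave PancB1Q and PancB1V from the pancreatic line PancVB. In lung lines, erlotinib gave HCC4006ER from HCC4006P1, and gefitinib gave HCC4006GR from HCC4006P2 and HCC827GR from HCC827P, both drugs being EGFR inhibitors. In ovarian lines, the PARP inhibitor olaparib gave U10 and U100 from UWB1.289, and cisplatin, which crosslinks DNA, gave IGROV-1/CDDP from IGROV-1. HepG2 and its derivatives grew in William's E medium and the other lines in RPMI medium, so family and medium cannot be told apart between HepG2 and the rest. Only 4 lines (HCC4006ER, HCC4006P1, HepG2S3 and HepG2) had 2 libraries, so 8 of the 10 pairs had a single library on at least 1 side and no replicate check there. Replicates of a line were told apart by the letters A and B in their names. In HCC4006P1 and HCC4006ER the replicate number of the title goes with the letter, but both HepG2 titles carry number 1 and both HepG2S3 titles number 2, so in that comparison the number coincides with the line. Nothing in the labels says that replicate libraries came from separate cultures, so spreads and p-values measure only the difference between these libraries, which may be technical.

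Library totals ran from 9851195 to 36639473 counts, the median being 19498932. Replicate 1 of HCC4006P1 stood apart from all others. From chr7:30620149 (GRCh37) onward in alphabetical chromosome order, it had no count on any of the 1679 genes with at least 50 counts in replicate 2, and 18.6% of the annotated counts of replicate 2 lay there. HSPB1 lies in that stretch, so its level in HCC4006P1 came from replicate 2 alone, while the other 8 genes were counted in all 21 libraries. Levels are CPM, counts scaled to the same total over the genes that every library could count, and these totals came to between 7733142 and 29888818 before scaling. The limit that a count of 0 allows, 3 counts, came to 0.388 CPM at most and 0.188 CPM in the median library. A change is the difference of log2(CPM + 1) between line means, resistant minus parental, and at low counts it comes out too small. Levels carry 95% Wilson intervals, from which those of changes are combined, and intervals and floors cover counting error only, as PCR can copy 1 molecule into many reads. Replicate libraries of a line differed by between 5.97 and 105 times counting noise (chi-square per degree of freedom), so between single libraries an interval that excludes no change does not show a difference between lines.

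The tissue markers went with the labels in part. The liver genes ALB, AFP, APOA1 and TTR summed to 20214 CPM in HepG2 and 21.3 CPM in HepG2S3, and all 4 were at 0 counts in HepG2S1. The lung genes NKX2-1 and NAPSA stood at 140 and 177 CPM in HCC4006P2 and at 22.9 and 1.88 CPM in HCC4006GR. They were at 0.0823 and 0.115 CPM in HCC4006P1 and at 0 and 0.412 CPM in HCC4006ER. PAX8, a marker of ovarian carcinoma, was between 469 and 891 CPM in the 5 ovarian lines, where WT1 did not exceed 0.634 CPM. MUC16, also listed for ovary, was highest in the lung line HCC827P (841 CPM), at 135, 39.2 and 125 CPM in UWB1.289, U10 and U100, and at 0.635 and 0.741 CPM in IGROV-1 and IGROV-1/CDDP. The duct keratin KRT19 was at 838 CPM in PancVB, 104 CPM in PancB1Q and 36.4 CPM in PancB1V. It was higher in the parental lung lines HCC4006P1 (1943 CPM), HCC4006P2 (1233 CPM) and HCC827P (965 CPM). The other listed duct genes, MUC1 and GATA6, were at 4.62 and 6.55 CPM in PancVB. Among blood markers, CD3E did not exceed 0.0815 CPM and PTPRC 0.846 CPM in any line, but CD14 reached 15.0 CPM in U100 and 11.8 CPM in U10. Of the endothelial genes, CDH5 reached 106 CPM in U10 (11.9 CPM in UWB1.289) and 87.2 CPM in PancB1V (53.3 CPM in PancVB). VWF was at 1.78 CPM in U10 (1.81 CPM in UWB1.289) and 0.667 CPM in PancB1V (4.10 CPM in PancVB). In U100 both genes were above UWB1.289, CDH5 at 57.3 CPM and VWF at 5.38 CPM. VWF was highest in IGROV-1/CDDP (12.6 against 3.86 CPM in IGROV-1), where CDH5 was lower (1.06 against 7.91 CPM). The mesenchymal filament gene VIM was at 0.120 CPM in HepG2, 1548 CPM in HepG2S1 and 1378 CPM in HepG2S3. The other mesenchymal genes did not follow it there, with COL1A1 at 20.5, 33.5 and 21.2 CPM, PDGFRB at 9.93, 2.59 and 8.51 CPM, and COL1A2 at 0.129 CPM or less. HCC4006ER differed from HCC4006P1 in more of these genes, with COL1A2 at 1653 against 0.194 CPM (replicate 2 alone), PDGFRB at 44.4 against 0.124 CPM and VIM at 1830 against 652 CPM. The epithelial gene CDH1 was at 11.8 CPM in HCC4006ER against 579 CPM in HCC4006P1, and at 0.388 and 0.652 CPM in HepG2S1 and HepG2S3 against 178 CPM in HepG2. HCC827GR differed from HCC827P in CDH1 (72.9 against 1019 CPM) and VIM (923 against 89.3 CPM). Its COL1A1 was lower (2.20 against 9.27 CPM), and COL1A2 and PDGFRB were at 0.176 CPM or less in both lines. HCC4006GR was higher than HCC4006P2 in VIM (745 against 199 CPM), COL1A2 (124 against 5.85 CPM) and PDGFRB (1.96 against 0.0914 CPM). CDH1 was at a like level (614 against 599 CPM). The other listed epithelial genes were lower, EPCAM at 333 against 428 CPM, KRT8 at 476 against 831 CPM and KRT18 at 351 against 461 CPM. IGROV-1/CDDP was lower than IGROV-1 in CDH1 (0.794 against 17.4 CPM) and in the epithelial genes EPCAM (0.423 against 8.01 CPM) and KRT8 (39.4 against 171 CPM). It was higher in KRT19 (499 against 120 CPM), PDGFRB (7.30 against 0.537 CPM) and VIM (652 against 515 CPM). The collagen genes went opposite ways in IGROV-1/CDDP. COL1A1 was higher (532 against 174 counts), and COL1A2 was lower on few counts (0.529 against 1.17 CPM, 10 against 24 counts). The part of these marker differences in the chaperone values was not tested, and in bulk RNA fewer cells of a type and less RNA per cell cannot be told apart.

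Heat shock proteins are chaperones that bind unfolded proteins and keep them from clumping until they are refolded or removed. Small heat shock proteins hold such clients, HSP70 refolds them with a J protein as its starter and HSP110 as its nucleotide exchange factor, and HSP90 matures signalling proteins, many of them kinases. HSPB8 forms a complex with the co-chaperone BAG3 that hands damaged proteins to autophagy, and many of these genes are switched on by the heat shock factor HSF1, which binds repeats of the unit GAA and its reverse complement.

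Promoter sequence played no part in choosing the genes, and the stretches that hold heat shock element letters are shown to let it be compared between them. The RefSeq promoter table (GRCh38.p14, from 250 bases before to 50 bases after each start) held 8 of the 9 genes, all but CRYAB. The letters GAANNTTC or TTCNNGAA, each its own reverse complement so that both strands are read at once, and able to overlap each other, were found in 6 of these 8 genes and in 7 of their 11 windows. Of all windows of this length 13.5% of 35116 held them, and 16.2% of 27305 genes. Among the other listed chaperone genes the share was 30.6% (19 of 62). BAG3 and HSPH1 did not hold these letters in their windows. Each stretch of 80 bases is given on the strand of its gene with the matched letters in capitals, and each was found by exact match at 1 place on its chromosome in GRCh37, both strands searched. The places are chr12:119616616-119616695 (plus strand) for HSPB8, chr7:75931780-75931859 (plus) for HSPB1, chr6:31783180-31783259 (plus) for HSPA1A, chr6:31795375-31795454 (plus) for HSPA1B, chr19:14629230-14629309 (minus) for DNAJB1 and chr14:102553422-102553501 (minus) for HSP90AA1. Those of HSPB8, DNAJB1 and HSP90AA1 lie inside the annotated span of their gene and the other 3 just before it.
HSPB8: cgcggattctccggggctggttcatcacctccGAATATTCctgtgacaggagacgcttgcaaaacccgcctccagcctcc
HSPB1: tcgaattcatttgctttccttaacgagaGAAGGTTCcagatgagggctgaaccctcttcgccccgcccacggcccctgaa
HSPA1A: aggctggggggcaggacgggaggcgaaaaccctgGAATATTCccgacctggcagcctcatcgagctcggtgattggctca
HSPA1B: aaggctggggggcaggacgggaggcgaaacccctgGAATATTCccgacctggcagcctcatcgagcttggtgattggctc
DNAJB1: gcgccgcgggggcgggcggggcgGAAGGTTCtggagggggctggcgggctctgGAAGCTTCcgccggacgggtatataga
HSP90AA1: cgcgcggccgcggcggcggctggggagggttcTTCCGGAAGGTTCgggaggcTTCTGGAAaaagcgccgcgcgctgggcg

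The same letters, GAATATTC, began 88 bases before the start in HSPB8, 106 bases before it in HSPA1A and 105 bases before it in HSPA1B. The upstream sequences of HSPA1A and HSPA1B, shifted by 1 base, were 94.4% identical. A run of 3 units, GAA and its reverse complement in turn and 2 bases apart, was found in HSP90AA1 alone among the 8 genes and in 0.490% of all windows, and in 7 of the 62 other chaperone genes (11.3%). A match describes the letters in a window and does not show that a factor binds there.

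HSPB8, the partner of BAG3, lies at chr12:119609360-119662660 and had a change over 1 in 6 of 10 resistant lines. HepG2 held 8.60 and 11.9 CPM in its libraries, HepG2S1 held 94.5 CPM, and HepG2S3 held 146 and 164 CPM. Every resistant library of this family lay above both parental ones, by 9.22-fold in HepG2S1 and 15.1-fold in HepG2S3 in mean CPM. The change was 3.09 in HepG2S1 and 3.79 ± 0.26 in HepG2S3 (SD over 4 pairings of libraries). The 95th percentile of all genes with a mean of at least 1 CPM was 3.15 and 3.20. The HepG2S1 change thus lay below it and the HepG2S3 change above it. In these pairs the median of all genes was 0.27 and 0.29, and library sizes from TMM, which assume that most genes do not change, moved it to -0.12 and 0.01. The HSPB8 changes were 2.70 and 3.53 with TMM sizes. In PancB1Q these sizes moved the median of all genes from -0.06 to 0.10, and in the other 7 pairs by less than 0.10.

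In the lung lines HSPB8 was at 12.8 and 21.0 CPM in HCC4006P1 and at 39.4 and 38.6 CPM in HCC4006ER, a change of 1.16 ± 0.39 (SD over 4 pairings) that came to 0.86, under 2-fold, without HCC4006P1 replicate 1. HCC4006P2 held 15.8 CPM (95% interval 13.6 to 18.3) and HCC4006GR 59.4 CPM (55.2 to 63.8), a ratio of 3.76 (3.18 to 4.46). HCC827P held 14.5 CPM (12.6 to 16.8) and HCC827GR 39.3 CPM (35.8 to 43.1), a ratio of 2.70 (2.27 to 3.22). All 3 resistant lung lines thus lay above their parental line. The cisplatin-resistant line did too, with 74.2 CPM against 21.4 CPM in IGROV-1, a ratio of 3.47 (3.11 to 3.87).

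The PancVB and UWB1.289 families held almost no HSPB8. PancVB had 0 counts (up to 0.171 CPM by the 3-count limit and 0.219 CPM by the Wilson interval), and PancB1Q had 2 counts. PancB1V had 11 counts (0.564 CPM), 3.30-fold above the 3-count floor of PancVB with a counting limit of 2.26-fold. The change in PancB1V was 0.65 (2.73 with 0.1 CPM added instead of 1 CPM). UWB1.289 and U10 had 0 counts (up to 0.339 and 0.380 CPM by the 3-count limit, 0.434 and 0.487 CPM by the Wilson interval). U100 had 1 count, so a difference was not detectable at this depth. In the order of the 17 lines HepG2S3, HepG2S1, IGROV-1/CDDP and HCC4006GR came first, then HCC827GR and HCC4006ER, then IGROV-1, HCC4006P1, HCC4006P2 and HCC827P, then HepG2, and last the 6 lines of the PancVB and UWB1.289 families.

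HSPB1 (HSP27), a small heat shock protein that also acts on actin filaments, lies at chr7:75931990-75933612 and was well counted in all 17 lines. HepG2 held 42.3 and 32.2 CPM, the lowest of all lines, against 355 CPM in HepG2S1 and 320 and 400 CPM in HepG2S3. The changes were 3.22 in HepG2S1 and 3.24 ± 0.29 in HepG2S3 (SD over 4 pairings), and 2.81 and 2.95 with TMM sizes. No derived library overlapped a parental one in this family. HCC827GR held 312 CPM against 139 CPM in HCC827P, a ratio of 2.24 (2.11 to 2.37). IGROV-1/CDDP held the highest level of all lines, 810 CPM, against 410 CPM in IGROV-1, a ratio of 1.98 (1.93 to 2.03) and a change of 0.98, which was 1.07 with TMM sizes. HSPB1 was thus past a change of 1 in 3 pairs, those of HepG2S1, HepG2S3 and HCC827GR.

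The other pairs differed less in HSPB1. PancVB held 54.8 CPM, PancB1Q 61.4 CPM (change 0.16, 0.05 to 0.28) and PancB1V 90.9 CPM (0.72, 0.61 to 0.83). HCC4006P1 replicate 2 held 289 CPM, and HCC4006ER 332 and 361 CPM. HCC4006P2 held 234 CPM and HCC4006GR 217 CPM (-0.11, -0.19 to -0.03). UWB1.289 held 245 CPM, U10 417 CPM (0.76, 0.69 to 0.84) and U100 234 CPM, the last within counting error of UWB1.289. A retrotransposed copy, HSPB1P1, shares 4.22% of the 50-base windows of HSPB1.

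CRYAB (alpha B crystallin), a small heat shock protein first known from the eye lens and abundant in muscle, lies at chr11:111779288-111794446. Its levels ran from 0 to 718 CPM, the latter in U10. UWB1.289 held 148 CPM, U10 718 CPM and U100 565 CPM, ratios of 4.84 (4.56 to 5.14) and 3.81 (3.59 to 4.05). IGROV-1 had 1 count and IGROV-1/CDDP had 2956 counts (156 CPM), a ratio of 3203 with a counting interval from 574 to 126545. All 3 resistant ovarian lines therefore held more CRYAB than their parental line, and IGROV-1/CDDP overlapped UWB1.289.

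In lung, HCC4006P2 had 12 counts of CRYAB (1.10 CPM) and HCC4006GR 9.54 CPM, a ratio of 8.70 (4.80 to 17.3). HCC827P had 5 counts (0.393 CPM) and HCC827GR 11.1 CPM, a ratio of 28.2 (11.8 to 88.4). HCC4006ER went the other way, with 1 and 0 counts against 17 and 11 counts in HCC4006P1, a change of -0.82 ± 0.11 (SD over 4 pairings) that was -2.81 with 0.1 CPM added instead of 1 CPM. HepG2 held 1.67 and 0.426 CPM, HepG2S1 14.5 CPM, and HepG2S3 5.34 and 4.36 CPM, with every derived library above both parental ones. PancVB, PancB1Q and PancB1V had 2, 1 and 4 counts, within counting error of each other. CRYAB was past a change of 1 in 7 of 10 pairs. It overlaps HSPB2 on the opposite strand, which had 81 counts over all 21 libraries.

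**Figure D1:**
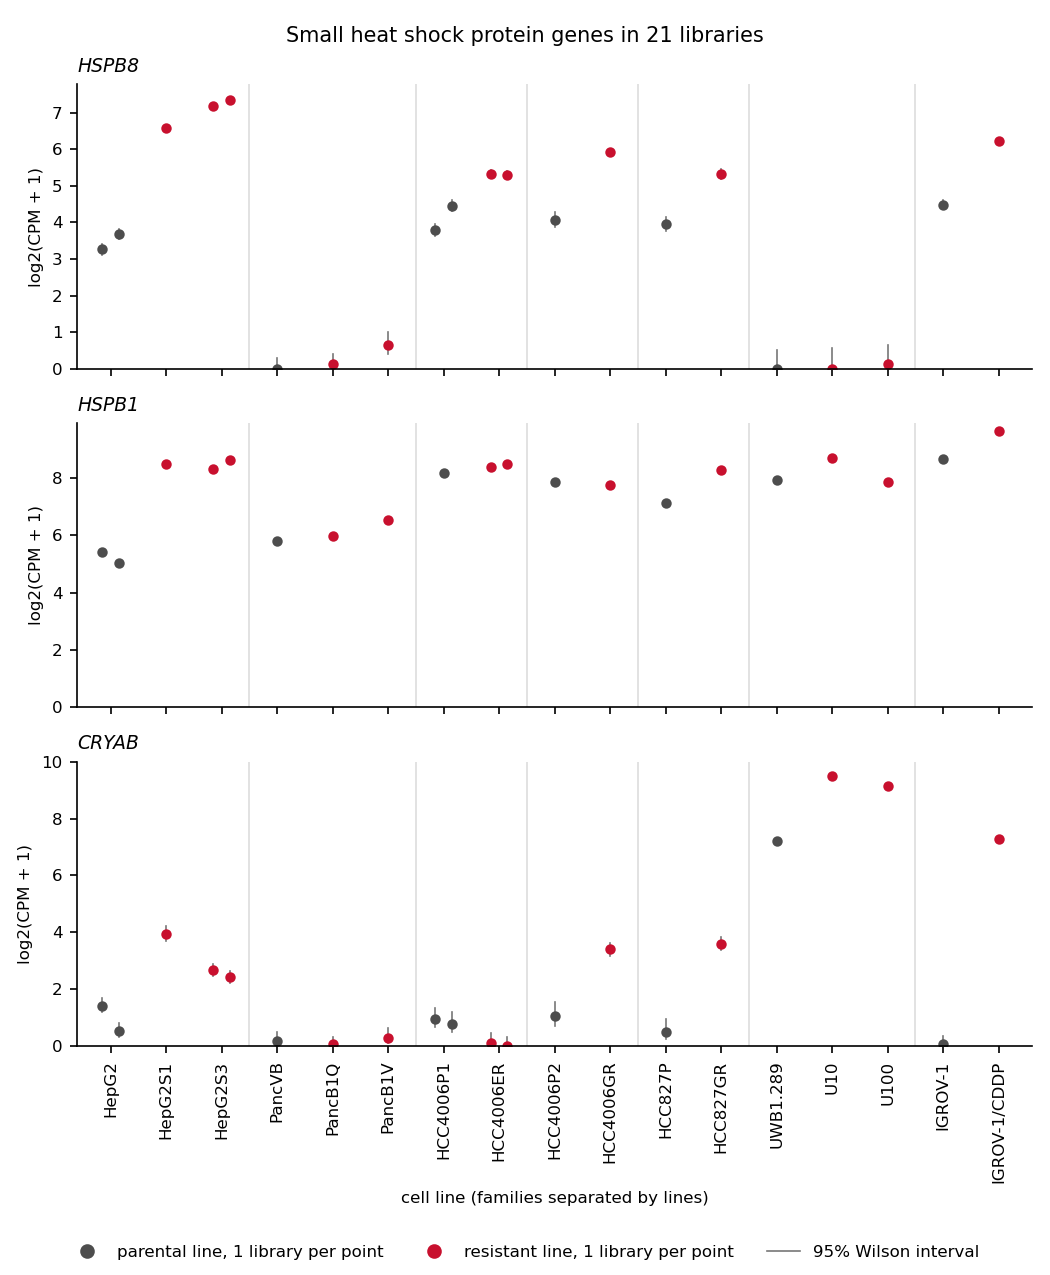
HSPB8, HSPB1 and CRYAB in each library as log2(CPM + 1), by cell line, with 95% Wilson intervals. HSPB8 is near 0 in the PancVB and UWB1.289 families and higher in the resistant libraries of the other families, and CRYAB reaches 718 CPM in U10.

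BAG3, the co-chaperone that couples HSPB8 and HSP70 and steers their clients to autophagy, lies at chr10:121410892-121437331. Its mean level ran from 31.7 CPM in HepG2 to 135 CPM in PancB1Q. HepG2 held 33.1 and 30.3 CPM, HepG2S1 116 CPM, and HepG2S3 56.6 and 60.4 CPM, changes of 1.84 and 0.86 ± 0.09 (SD over 4 pairings). PancVB held 77.2 CPM, PancB1Q 135 CPM (change 0.80, 0.70 to 0.89) and PancB1V 122 CPM (0.66, 0.56 to 0.75). BAG3 thus lay higher in every resistant library of these families, but PancB1Q, PancB1V and PancVB had a single library each. HCC4006P1 held 110 and 130 CPM, which overlapped 118 and 125 CPM in HCC4006ER, and the change of 0.01 turned to -0.09 with TMM sizes. The other lung pairs and the IGROV-1 pair differed by between -0.33 and 0.23. UWB1.289 held 130 CPM, U10 64.0 CPM (-1.01, -1.16 to -0.86, and just under 2-fold with total counts and, at -0.97, with TMM sizes) and U100 50.1 CPM (-1.36, -1.51 to -1.21). Among families with almost no HSPB8, BAG3 thus lay lower in the single libraries of the resistant lines of UWB1.289 and higher in those of PancVB.

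HSPA1A and HSPA1B, adjacent genes for the inducible HSP70 that refolds clients, lie at chr6:31783320-31785723 and chr6:31795515-31798031. Of their 50-base windows 73.7% in HSPA1A and 71.6% in HSPA1B occur in the other gene, and reads with several places, which came to between 19.3% and 31.9% of a library, were not counted, so the split between the genes is uncertain. HepG2 held 30.1 and 41.6 CPM of HSPA1A, HepG2S1 106 CPM, and HepG2S3 67.5 and 88.4 CPM. The changes were 1.53 and 1.10 ± 0.34 (SD over 4 pairings), the latter under 2-fold with TMM sizes (0.81), without HepG2 replicate 1 (0.89) and without HepG2S3 replicate 2 (0.89). HSPA1B was at 40.5 and 56.3 CPM in HepG2, 85.0 CPM in HepG2S1 (change 0.80, with 0.39 for TMM sizes, 0.59 without HepG2 replicate 1 and 1.05 without HepG2 replicate 2), and 35.1 and 47.3 CPM in HepG2S3. HepG2S3 thus stood above HepG2 in HSPA1A and overlapped it in HSPA1B.

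In the ovarian lines both HSP70 genes were lower in the resistant line. UWB1.289 held 94.8 CPM of HSPA1A, U10 21.9 CPM (-2.06, -2.29 to -1.84) and U100 41.3 CPM (-1.18, -1.35 to -1.01). HSPA1B was at 78.2 CPM in UWB1.289, 24.3 CPM in U10 (-1.64, -1.87 to -1.42) and 37.5 CPM in U100 (-1.04, -1.22 to -0.86). IGROV-1 and IGROV-1/CDDP held the lowest HSPA1A of all lines, 11.4 and 6.61 CPM, beside 51.6 and 40.7 CPM of HSPA1B. In the pancreatic lines both genes were higher in the resistant lines, with changes of 0.65 and 0.60 for HSPA1A and of 0.79 and 0.71 for HSPA1B. Changes in the 3 lung pairs lay between -0.33 and 0.64 for HSPA1A and between -0.51 and 0.03 for HSPA1B, the latter in HCC827GR turning to -0.01 with TMM sizes.

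DNAJB1 (HSP40), the J protein that loads clients onto HSP70, lies at chr19:14625581-14671203, and none of its 10 changes passed 2-fold. HepG2 held 78.0 and 72.8 CPM, HepG2S1 107 CPM, and HepG2S3 81.8 and 91.5 CPM. HCC4006P1 held 86.7 and 80.4 CPM and HCC4006ER 60.5 and 70.7 CPM, a change of -0.34 ± 0.14 (SD over 4 pairings). The lowest change was -0.82 in HCC4006GR, with 57.6 CPM against 102 CPM in HCC4006P2. The highest was 0.49 in HepG2S1, followed by 0.41 in IGROV-1/CDDP, but with TMM sizes these were 0.08 and 0.50. The change of 0.20 in HepG2S3 turned to -0.09 with TMM sizes. HCC827P and HCC827GR held the lowest levels of all lines, 43.3 and 32.2 CPM. DNAJB1 overlaps TECR on the opposite strand, with 34016 counts over all libraries, and since the strand setting of the counting is not given in the sources used here, reads of the overlap cannot be told apart.

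HSPH1 (HSP110), the exchange factor that resets HSP70, lies at chr13:31709110-31736525. UWB1.289 held 1365 CPM, the highest of all lines, U100 687 CPM and U10 595 CPM. The changes were -0.99 (-1.03 to -0.95, and -1.06 with TMM sizes) in U100 and -1.20 (-1.25 to -1.15) in U10. HepG2 held 212 and 289 CPM, HepG2S1 136 CPM, and HepG2S3 110 and 127 CPM, changes of -0.88 and -1.07 ± 0.28 (SD over 4 pairings). The first was past 2-fold with TMM sizes (-1.29) and without HepG2 replicate 1 (-1.08), and the second was under it without HepG2 replicate 2 (-0.83) or HepG2S3 replicate 1 (-0.98). HSPH1 thus lay lower in every resistant library of both families, but UWB1.289, U10 and U100 had a single library each. PancB1Q with 581 CPM and PancB1V with 510 CPM stood above PancVB with 299 CPM, changes of 0.96 (0.91 to 1.00) and 0.77 (0.72 to 0.81), the first of them 1.13 with TMM sizes. HCC4006ER held 326 and 319 CPM against 143 and 173 CPM in HCC4006P1, a change of 1.03 ± 0.16 (SD over 4 pairings) that was under 2-fold with TMM sizes (0.93), with total counts (0.91) and without HCC4006P1 replicate 1 (0.90). HSPH1 thus lay higher in the libraries of these 3 resistant lines, those of PancB1Q, PancB1V and PancVB being single. HCC4006GR, HCC827GR and IGROV-1/CDDP differed from their parental line by -0.36, -0.34 and -0.08, the last of which turned to 0.01 with TMM sizes.

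HSP90AA1, the inducible HSP90 gene, lies at chr14:102547079-102606036. HCC4006P2 held 4917 CPM and HCC4006GR 2335 CPM, a change of -1.07 that came to -0.99 with TMM sizes. HCC827P held 3997 CPM and HCC827GR 1920 CPM, a change of -1.06. UWB1.289 held 4248 CPM, U10 1686 CPM and U100 2009 CPM, changes of -1.33 and -1.08. These were the 4 changes past 2-fold for this gene, all toward a lower level. HCC4006P1 held 3654 and 4360 CPM and HCC4006ER 2748 and 2840 CPM, a change of -0.52 ± 0.15 (SD over 4 pairings). In the HepG2 family the libraries overlapped, with 1331 and 2008 CPM in HepG2, 1903 CPM in HepG2S1, and 1988 and 2297 CPM in HepG2S3, and the change of 0.19 in HepG2S1 turned to -0.22 with TMM sizes. The remaining resistant lines were not lower: PancB1V (3947 CPM) was within counting error of PancVB (3934 CPM), PancB1Q held 4652 CPM, and IGROV-1/CDDP held 4757 CPM against 2579 CPM in IGROV-1 (0.88, 0.87 to 0.90). Of its 50-base windows 8.19% are shared with the copy HSP90AA2P.

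Per length of annotated exon, the median level over the 17 lines was highest for HSP90AA1, at 548 CPM per kb, followed by HSPB1 at 151 CPM per kb. BAG3 and HSPH1 stood at 37.5 and 35.7 CPM per kb, HSPA1A and HSPA1B at 17.2 and 16.1, DNAJB1 at 8.35, and HSPB8 at 4.41, with CRYAB below them all. The length joins all annotated exons of a gene, 8188 bases for DNAJB1 and 2404 bases for HSPA1A, and can exceed that of the RNA present. Reads shared by HSPA1A and HSPA1B were not counted, which lowers their values. The order of the genes is therefore uncertain. The labels give a stranded mRNA kit for all 21 libraries, and the processing notes name Bowtie and TopHat, as the methods do for that kit. The methods also name a kit that reads the 3′ end only, mapped with Star, without listing its libraries. For such a kit, levels per length would not compare between genes.

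**Figure D2:**
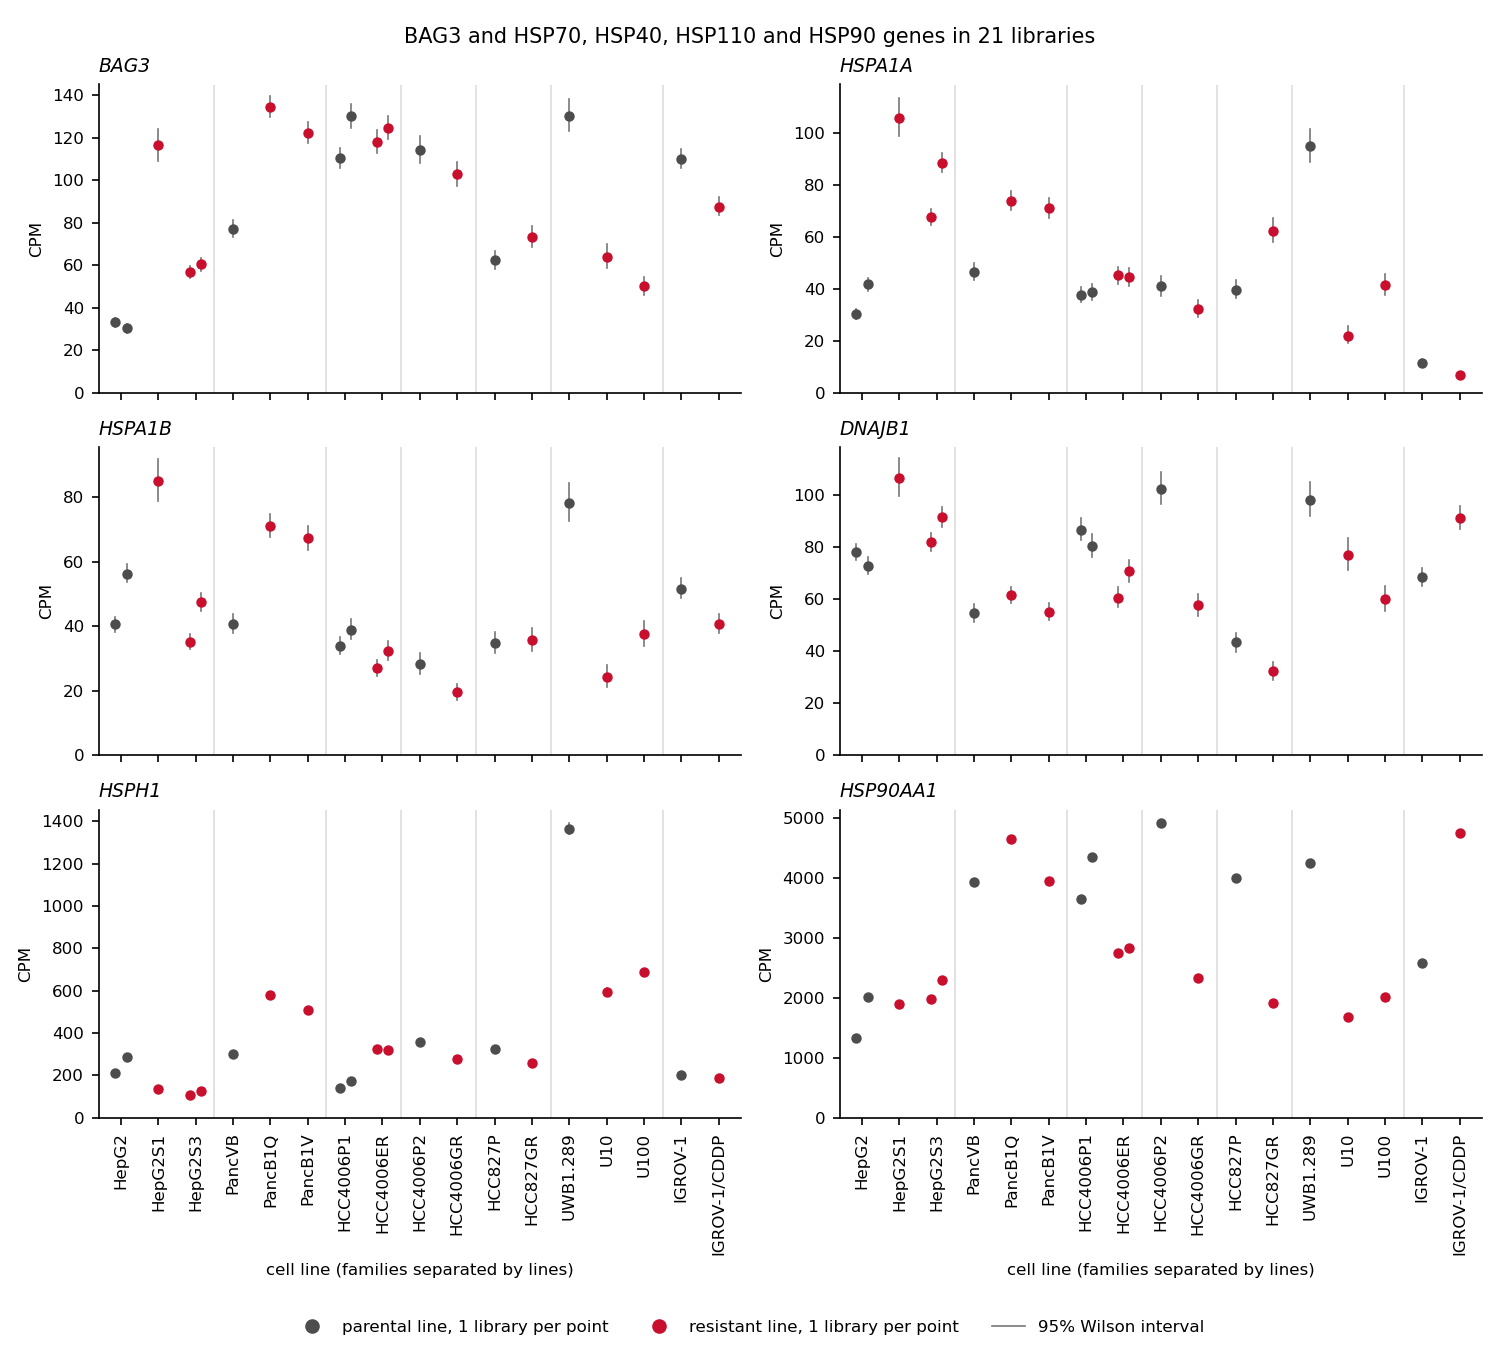
CPM of BAG3, HSPA1A, HSPA1B, DNAJB1, HSPH1 and HSP90AA1 in each library, by cell line, with 95% Wilson intervals. UWB1.289 is above U10 and U100 in all 6 genes, and HSPH1 is at 1365 CPM in UWB1.289.

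Seen by pair, changes past 2-fold were counted over genes with a mean of at least 1 CPM. In HepG2S1, 5 of 9 members were higher (HSPB1, HSPB8, CRYAB, BAG3 and HSPA1A) and none lower, beside 27.2% and 18.1% of 13655 genes. In HepG2S3, 4 of 9 were higher (HSPB1, HSPB8, CRYAB and HSPA1A) and 1 lower (HSPH1), beside 28.2% and 17.8% of 13582 genes. In either direction this was 45.3% of genes in HepG2S1 and 46.0% in HepG2S3. In U10, 1 of 8 was higher (CRYAB) and 5 lower (BAG3, HSPA1A, HSPA1B, HSPH1 and HSP90AA1), beside 6.64% and 5.57% of 14146 genes. In U100, 1 of 8 was higher (CRYAB) and 4 lower (BAG3, HSPA1A, HSPA1B and HSP90AA1), beside 7.01% and 1.93% of 14459 genes. In either direction this was 12.2% in U10 and 8.94% in U100. HSPB8 did not reach 1 CPM in these pairs, and U10 and U100 share the single library of UWB1.289.

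In HCC4006GR, 2 of 9 members were higher (HSPB8 and CRYAB) and 1 lower (HSP90AA1), beside 7.95% and 8.10% of 14448 genes. In HCC827GR, 3 of 9 were higher (HSPB1, HSPB8 and CRYAB) and 1 lower (HSP90AA1), beside 11.2% and 8.06% of 13696 genes. In HCC4006ER, 2 of 7 were higher (HSPB8 and HSPH1) and none lower, beside 12.4% and 10.9% of 11812 genes, with HSPB1 outside the counted genes and CRYAB under 1 CPM. In either direction this was 16.1% in HCC4006GR, 19.3% in HCC827GR and 23.4% in HCC4006ER. HSPB8 was past 2-fold in each of the 3 lung pairs. In HCC4006ER both HSPB8 and HSPH1 were under 2-fold without HCC4006P1 replicate 1, and HSPH1 also with TMM sizes and with total counts. In IGROV-1/CDDP, 2 of 9 were higher (HSPB8 and CRYAB) and none lower, beside 5.73% and 7.68% of 13882 genes. In PancB1Q and PancB1V none of the 7 members at 1 CPM or more passed 2-fold, beside 6.71% higher and 9.43% lower of 13379 genes and 9.52% higher and 7.22% lower of 13750 genes. In either direction this was 13.4% in IGROV-1/CDDP, 16.1% in PancB1Q and 16.7% in PancB1V. Over all 90 changes, 20 passed 2-fold toward a higher and 12 toward a lower level, and the 3 small heat shock protein genes held 16 of the 20 and none of the 12. The share of all genes past 2-fold in either direction ran from 8.94% in U100 to 46.0% in HepG2S3. The pairs of the HepG2, PancVB and UWB1.289 families share parental libraries, and the genes were chosen by these changes, so these counts are a description. With 0.1 CPM added instead of 1 CPM the counts were 21 and 13, with HSPB8 in PancB1V added to the higher and CRYAB in HCC4006ER to the lower changes.

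**Figure D3:**
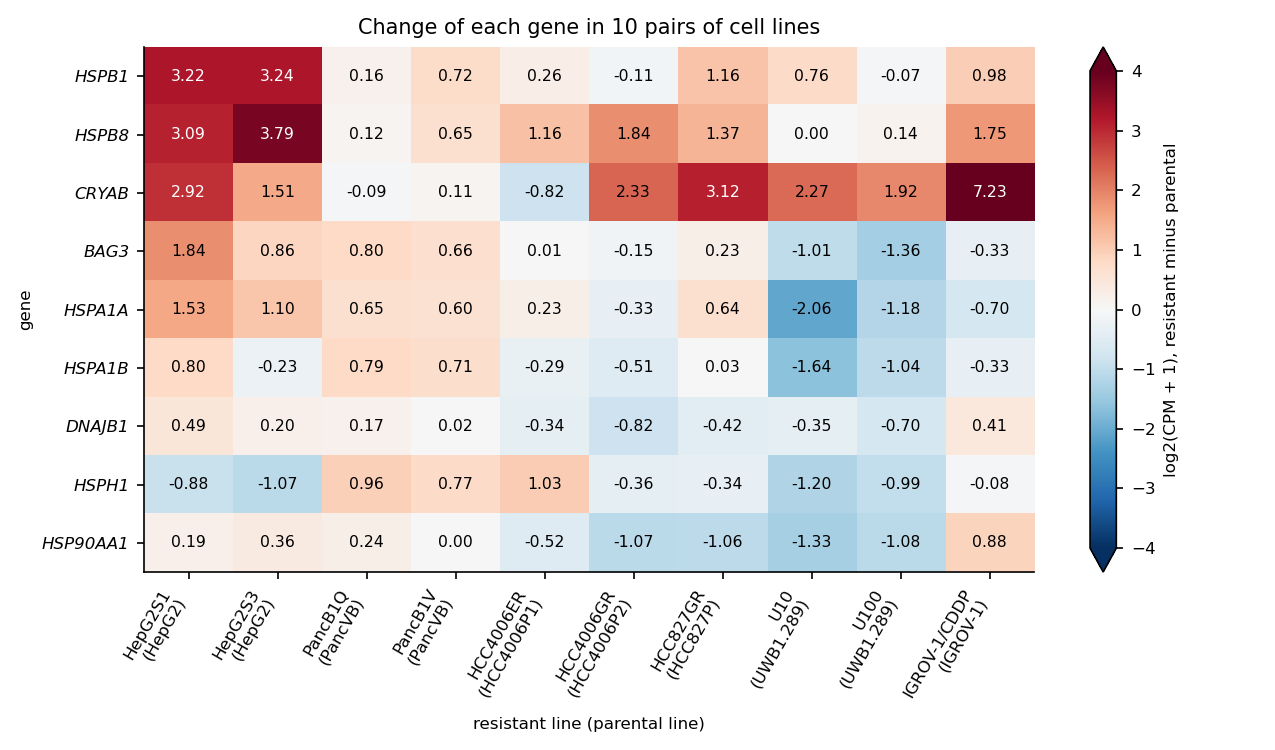
Change of the 9 genes in 10 pairs as the difference of log2(CPM + 1), resistant minus parental; the colour scale ends at 4 and -4. The highest value is 7.23 for CRYAB in IGROV-1/CDDP and the lowest is -2.06 for HSPA1A in U10.

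**Figure D4:**
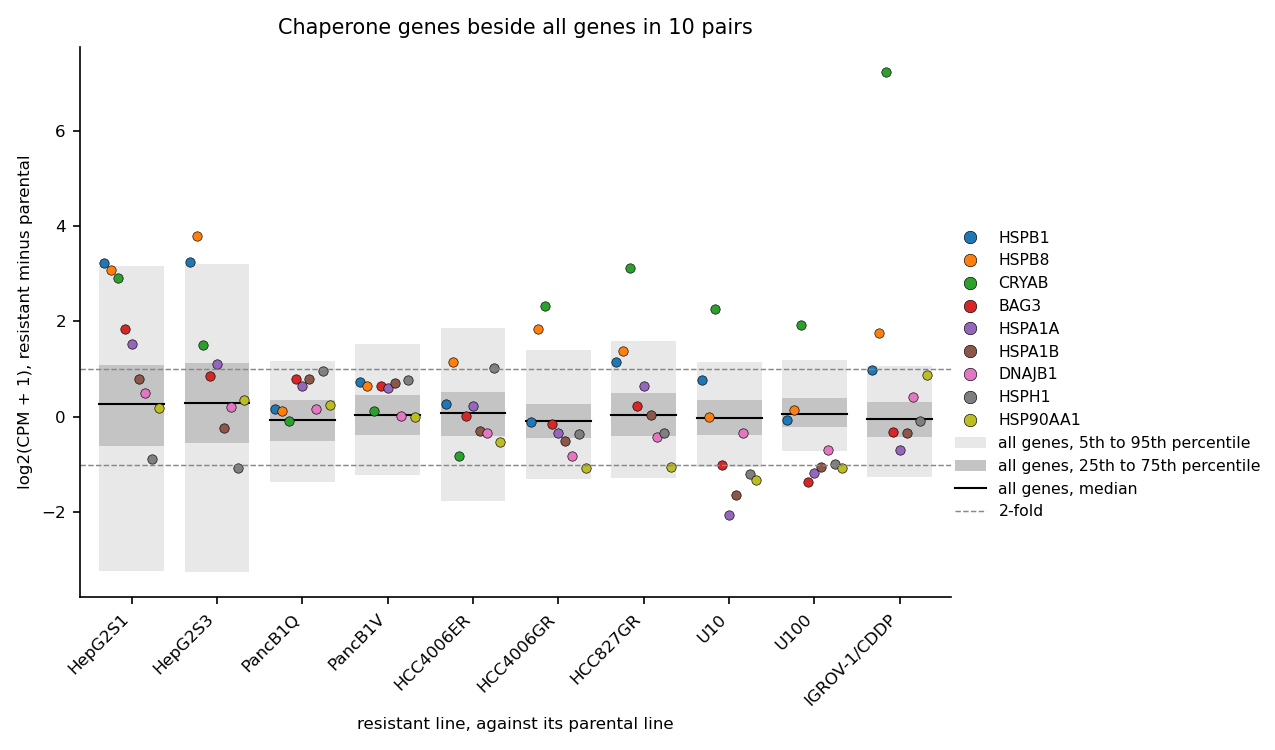
The same changes (points) over the spread of all genes with a mean of at least 1 CPM in each pair (bands from the 5th to the 95th and from the 25th to the 75th percentile, line at the median), with dashed lines at 2-fold. The median of all genes is 0.27 in HepG2S1 and 0.29 in HepG2S3.

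Fold changes from edgeR, with library sizes scaled over the genes tested in each comparison, are given for the members without p-values. Each edgeR SE, here and below, is the size of the fold change divided by the square root of the F statistic of edgeR. It is thus not a separate estimate of spread, and for members chosen by these changes it serves as description only. In HepG2S3 against HepG2 the log2 fold change was 3.60 (SE 0.21) for HSPB8, 2.95 (SE 0.22) for HSPB1, 1.87 (SE 0.60) for CRYAB and -1.40 (SE 0.19) for HSPH1. In HCC4006ER against HCC4006P1 it was 1.12 (SE 0.26) for HSPB8, 0.95 (SE 0.15) for HSPH1, -0.60 (SE 0.15) for HSP90AA1 and -4.48 (SE 0.80) for CRYAB, which had 28 counts in HCC4006P1 and 1 in HCC4006ER. Over the 7 parental lines, each with the counts of its resistant lines summed, it was 2.04 (SE 0.43) for HSPB8, 0.83 (SE 0.34) for HSPB1 and 2.72 (SE 1.36) for CRYAB. The other 6 members had values at or under 0 there, down to -0.42 (SE 0.29) for HSP90AA1.

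Among 72 other chaperone genes listed by role, 70 were found in the counts. In HepG2S3 against HepG2, edgeR called 20 of 66 tested genes higher and 19 lower (59.1%), beside 31.4% higher and 32.1% lower of all 16929 genes (63.5% in all), so the list was called about as often as other genes. Without HepG2S3 replicate 2 the counts were 11 higher and 10 lower, and without HepG2S3 replicate 1 the lower count was 11. Calls over all genes also dropped, to 3604 higher and 3737 lower without replicate 2 and to 3567 and 3795 without replicate 1, from 5308 and 5436. The largest rise was in FLNC, a filamin cleared by BAG3 in muscle, from 0.234 and 0.249 CPM to 255 and 253 CPM (log2 fold change 9.70, SE 0.19, edgeR adjusted p = 2.59e-05). DNAJA4, a J protein, rose from 28 and 27 counts to 643 and 617 counts (4.39, SE 0.21, edgeR adjusted p = 8.09e-05), and HSPA2, an HSP70 best known from testis, rose from 10 and 6 counts to 77 and 95 counts (3.29, SE 0.38, edgeR adjusted p = 0.00122). CRYAA, the lens crystallin related to CRYAB, fell from 38.4 and 61.2 CPM to 1 and 2 counts (-9.91, SE 0.46, edgeR adjusted p = 7.50e-05), while CRYAB stood higher in HepG2S3. HSPA12A, a distant HSP70 relative, fell from 29.2 and 30.1 CPM to 2.65 and 3.08 CPM (-3.69, SE 0.19, edgeR adjusted p = 9.72e-05), and MAP1LC3B, an autophagosome coat protein, fell from 354 and 378 CPM to 128 and 120 CPM (-1.88, SE 0.12, edgeR adjusted p = 0.000202).

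By role in this comparison, 6 of 12 other J proteins fell (DNAJA1, DNAJA2, DNAJB2, DNAJB9, DNAJB11 and DNAJC3) and 3 rose (DNAJA4, DNAJB4 and DNAJB5), where 32.1% of all genes fell and 31.4% rose. Differences between a role and all genes were not tested. Of 11 HSP70 and HSP110 genes 4 rose (HSPA1L, HSPA2, HSPA13 and HSPA14) and 3 fell (HSPA5, HSPA12A and HYOU1). HSPA5 and HYOU1 are among the chaperones of the endoplasmic reticulum and do not stand for all of them. Of 11 HSP90 genes and partners 4 rose (FKBP4, FKBP5, PTGES3 and TRAP1) and 2 fell (HSP90AB1 and CDC37), and of 10 chaperonin genes 1 rose (CCT5) and 3 fell (HSPD1, HSPE1 and TCP1). Of 8 BAG and HSP70 co-chaperone genes 3 rose (BAG1, HSPBP1 and STUB1) and 2 fell (BAG6 and ST13). Genes listed here beyond the largest changes were named after their values were seen. The heat shock factor gene HSF1 fell, from 79.7 and 92.9 CPM to 75.4 and 75.6 CPM (-0.51, SE 0.13, edgeR adjusted p = 0.0205). HSF2 stood at 36.5 and 38.7 CPM in HepG2 and 38.2 and 37.5 CPM in HepG2S3 (-0.31, SE 0.14, edgeR adjusted p = 0.0958). These edgeR values use TMM sizes, which shift the median of all genes in this pair by -0.28 against CPM, so they lie below what the CPM show. HSF4, named after its values were seen, rose from a mean of 3.13 CPM to 11.8 CPM (1.59, SE 0.27, edgeR adjusted p = 0.00453).

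In HCC4006ER against HCC4006P1, tested on genes that both HCC4006P1 libraries counted, edgeR called 10 of 53 listed genes higher and 10 lower (37.7%), beside 24.1% higher and 24.9% lower of all 12791 genes (49.0% in all). Without HCC4006ER replicate 1 the counts were 5 higher and 2 lower, without HCC4006ER replicate 2 the lower count was 4, without HCC4006P1 replicate 1 it was 20, and without HCC4006P1 replicate 2 the higher count was 25. Over all genes the counts were 3084 higher and 3182 lower, and without HCC4006ER replicate 1 they were 1988 and 2058. With the letter of the library as a replicate block, more genes were called in each direction, in the list and over all genes. Deviations of libraries with the same letter correlated with r = 0.386 in this pair, and the labels do not say what the letters mark. With the uncounted stretch kept in, 6 listed genes were higher and 3 lower, and 1673 and 1744 of all genes. HSPB6, a small heat shock protein of muscle, rose from 0.439 and 0.839 CPM to 4.65 and 4.07 CPM (log2 fold change 2.70, SE 0.37, edgeR adjusted p = 0.00148). HSPA13, an HSP70 relative, rose from 59.7 and 47.0 CPM to 115 and 109 CPM (0.99, SE 0.14, edgeR adjusted p = 0.00160). HSPA12A rose from 2.25 and 2.32 CPM to 5.53 and 5.03 CPM (1.13, SE 0.24, edgeR adjusted p = 0.00833), a call that was lost without HCC4006ER replicate 1. The difference of HSPA12A between the HepG2 and HCC4006 comparisons was not tested.

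HSPA6, a strictly stress-induced HSP70, fell in HCC4006ER from 2.36 and 2.45 CPM to 4 and 6 counts, 0.251 and 0.382 CPM (-2.98, SE 0.38, edgeR adjusted p = 0.00118). TRAP1, the mitochondrial HSP90, fell from 157 and 218 CPM to 98.3 and 113 CPM (-0.92, SE 0.20, edgeR adjusted p = 0.00983). DNAJA4 fell from 11.6 and 12.5 CPM to 7.04 and 7.13 CPM (-0.85, SE 0.18, edgeR adjusted p = 0.00929). The DNAJA4 call was lost without either HCC4006ER library, and the TRAP1 call with the uncounted stretch kept in. HSF2 rose from 17.8 and 18.2 CPM to 33.9 and 28.0 CPM (0.70, SE 0.16, edgeR adjusted p = 0.0118), and HSF1 lies in the stretch not counted in HCC4006P1 replicate 1.

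Over the 7 parental lines edgeR called 0 of 15847 genes and 0 of 66 listed genes, with 722 genes and 4 listed genes (DNAJB5, FLNC, LAMP2 and STIP1) at an unadjusted p under 0.05. DESeq2 called 102 genes, among them DNAJB5, a J protein gene (log2 fold change 1.04, SE 0.27, DESeq2 adjusted p = 0.0326), and STIP1, the adaptor between HSP70 and HSP90 (-0.31, SE 0.08, DESeq2 adjusted p = 0.0390). Both were named after their values were seen. HSF1 and HSF2 had edgeR log2 fold changes of -0.05 (SE 0.15) and 0.02 (SE 0.23). In the single pairs the median change of the listed genes lay between -0.20 in U10 and 0.36 in HepG2S1, beside -0.02 and 0.27 for all genes there.

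Levels of the members across the 17 lines are described by correlations of log2(CPM + 1), whose points share parental lines and so are not independent. Of 36 pairs of members, HSPB8 and HSPH1 had the value farthest from 0, with Pearson's r = -0.82 and Spearman's rho = -0.80 over 17 lines. The 6 lines of the PancVB and UWB1.289 families, with almost no HSPB8, held between 299 and 1365 CPM of HSPH1, and HepG2S3, with the most HSPB8, held the least HSPH1, 118 CPM. HSPB8 had r = 0.50 with HSPB1 and r = -0.19 with CRYAB, and HSPA1A and HSPA1B had r = 0.43 with each other. BAG3 had r = 0.58 with HSP90AA1.

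**Figure D5:**
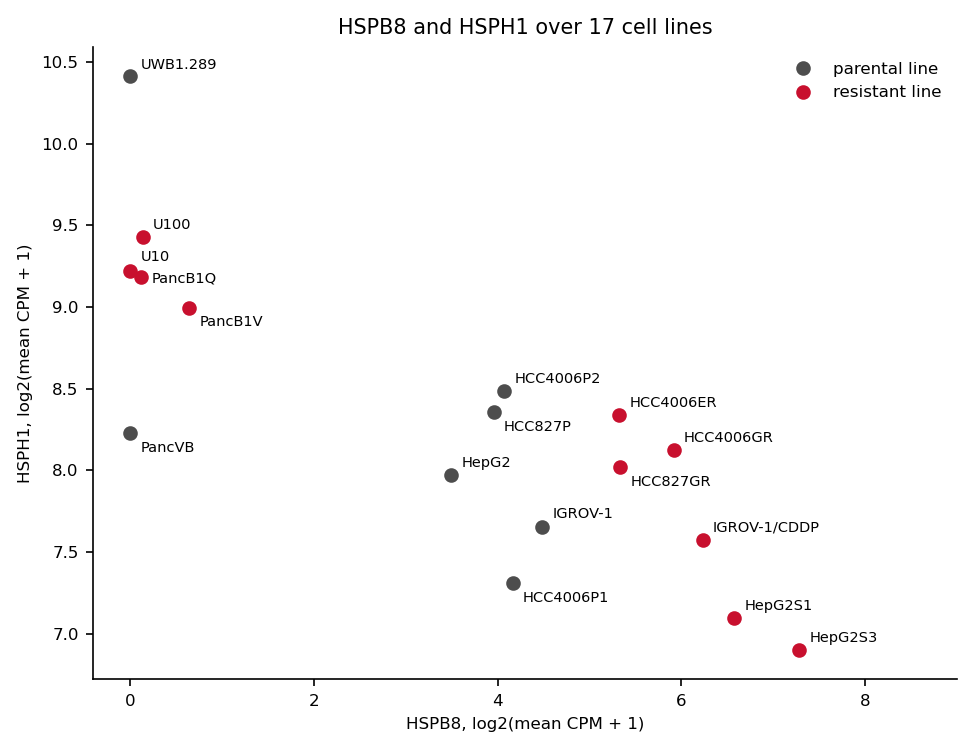
Mean level of HSPH1 against HSPB8 in 17 cell lines, both as log2(CPM + 1), with parental and resistant lines in different colours. HepG2S3 is at the lower right with 155 CPM of HSPB8 and 118 CPM of HSPH1, and UWB1.289 at the upper left with 0 counts of HSPB8 and 1365 CPM of HSPH1.

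Among 10321 genes with a mean of at least 5 CPM, the 5 with levels most like those of HSPB8 over the 17 lines were CD276, an immune checkpoint gene (r = 0.92), PHLDA3, a p53 target (r = 0.92), ZNF597 (r = 0.91), MATCAP1 (r = 0.91) and GLB1L (r = 0.90). CD276 ran from 27.4 CPM in PancVB to 202 CPM in HCC4006GR, and PHLDA3 from 2.28 CPM in PancVB to 74.1 CPM in HepG2S1. Ranked by Spearman's rho, 1 of these 5 was among the 5 highest. Most like DNAJB1 were CDC123 (r = 0.91), GDI2 (r = 0.87), SEPHS1 (r = 0.85), NUDT5 (r = 0.84) and NR4A1, an immediate early nuclear receptor gene (r = 0.82), of which 3 were among the 5 highest by Spearman's rho. CDC123, GDI2, SEPHS1 and NUDT5 lie on chromosome 10 between 5807186 and 13390298 (GRCh37), whereas DNAJB1 lies on chromosome 19, and all 5 genes, like DNAJB1, were lowest in HCC827GR.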

How the data were processed

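The authors deposited raw counts per Ensembl gene, made per their processing notes with Bowtie, TopHat, SAMtools and HTSeq on hg19 (versions not given in the sources used here). The labels give a stranded mRNA kit for all 21 libraries. Members and lists were chosen with earlier results of these data known. Identifiers were matched to GENCODE symbols (45100 of 53515). The 5 entries that name no gene were kept out of library sizes; reads at several places made up 19.3% to 31.9%, without a feature 5.24% to 14.0% and ambiguous 2.41% to 3.29% of a library. CPM used genes outside the stretch that HCC4006P1 replicate 1 did not count. Tests used edgeR 4.0.16 (quasi-likelihood, TMM, filterByExpr, Benjamini-Hochberg) in R 4.3.3, tested on simulated counts. Replicate libraries differed beyond counting noise. Alternatives were DESeq2 1.42.0 and its size factors, no filter, a replicate block, each library left out, a pseudocount of 0.1 CPM, a minimum of 5 CPM, other library sizes, all genes kept, and other groupings of families. Named genes were the members, HSF1, HSF2, up to 3 listed genes per direction and comparison with the largest fold change among calls whose mean reached 1 CPM, plus the 5 genes most like HSPB8 and DNAJB1.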

Additional observations from a re-analysis of the deposited data

Results flagged for a closer look

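The mean change of HSPB1 in the HepG2 family, 3.23, lay far above those of the other 6 families. This was 1 of 9 sets of 7 family values examined, and chance marks about 1 in 20 such sets, a rate that need not hold here because the genes were chosen by these changes. All genes with a mean of at least 1 CPM also spread more widely in the HepG2 pairs. Their 95th percentile was 3.15 in HepG2S1 and 3.20 in HepG2S3, and at most 1.86 (HCC4006ER) in the other pairs. Changes of 3 genes ran in opposite directions in HepG2S3 and HCC4006ER in every pairing of libraries: CRYAB with 1.51 and -0.82, DNAJB1 with 0.20 and -0.34, and HSPH1 with -1.07 and 1.03. For DNAJB1 the first value turned to -0.09 with TMM library sizes. These differences between the lines were not tested.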

How the results depend on the processing

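Of the 90 changes of the members, 0 had another sign with a pseudocount of 0.1 CPM (21 against 20 were then past 2-fold higher and 13 against 12 lower), 3 with total counts as library sizes and 5 with TMM sizes, none of them larger in size than 0.198 in the values reported. The 3 were BAG3 in HCC4006ER and DNAJB1 and HSP90AA1 in PancB1V. Leaving out a replicate turned HSP90AA1 in HepG2S1 (without HepG2 replicate 1), HSPA1B in HepG2S3 (without HepG2 replicate 2) and BAG3 in HCC4006ER (without HCC4006P1 replicate 1 or HCC4006ER replicate 2). Leaving out each replicate library in turn, the counts of listed genes ran from 11 to 26 (higher) and from 10 to 28 (lower) in HepG2S3. In HCC4006ER they ran from 5 to 25 (higher) and from 2 to 20 (lower), and those of all genes from 1988 to 4181 (higher) and from 2058 to 4210 (lower). A line left with 1 library was assumed to vary like its counterpart. With the uncounted stretch kept in, HCC4006ER gave 1673 genes higher and 1744 lower, and 6 and 3 listed genes. Deviations of libraries with the same letter correlated with r = 0.0153 (HepG2 against HepG2S3) and r = 0.386 (HCC4006P1 against HCC4006ER), and with that letter as a replicate block 17 listed genes were higher and 14 lower in HCC4006ER (all genes 3873 and 3914), and 19 and 19 in HepG2S3 (all genes 5279 and 5282). Over the 7 parental lines DESeq2 called 81 genes higher and 21 lower, and 1 and 1 listed genes. By Spearman's rho 1 of the 5 genes named for HSPB8 and 3 of those for DNAJB1 were among the 5 highest, and 1 member held a run of 3 heat shock element units against 6 with the shorter letters. The cause was not tested. Of 102 values of the 12 named listed calls, 98 kept their direction and call, and 4 lost the call.

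Single libraries for 13 lines, replicates of unknown origin and the missing stretch in HCC4006P1 replicate 1 limit all comparisons. Where both lines had 3 counts or fewer, as for HSPB8 in the UWB1.289 family, no fold is given, and the ratio of CRYAB in IGROV-1/CDDP rests on 1 count in IGROV-1. The HSPA1A and HSPA1B split depends on how shared reads were dropped. Each resistant line is 1 derived line, and whether cells were under drug at harvest is not given in the sources used here.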
